A study of Homo sapiens with 12 samples.

Results

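The 35 genes described here are the enzymes that carry glucose to lactate, the proteins that steer and feed that route, and genes that cells switch on when oxygen is short. They were taken by name from the 58288 gene identifiers counted in MV3 cells, an established human melanoma line that came from a lymph node metastasis. Of the 35, 15 are glycolytic enzymes, 6 handle lactate and pyruvate or control the flux, 4 transport glucose, lactate or acid, 3 sense oxygen and 7 are other targets of the hypoxia response. RNA was sequenced from 12 samples, 3 in each of 4 groups. Before the exposure, cells grown with 10% serum spent 3 h in RPMI with 1% serum. M1 cells then received, for 24 h, medium taken from macrophages. These had been derived from THP-1 monocytes with the phorbol ester PMA and then polarized with LPS and interferon-gamma. For M2 cells the same kind of macrophage had been polarized with IL4 and IL13, and for M0 cells the PMA-differentiated macrophages had not been polarized. Ctrl cells received fresh RPMI that no cells had conditioned, so a comparison with Ctrl includes conditioning itself. Any PMA, LPS or cytokine carried over in the media was not measured. All 4 groups are the same line, and THP-1 macrophages are themselves a cell line model.

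Glycolysis splits glucose into pyruvate. Lactate dehydrogenase turns pyruvate into lactate, while pyruvate dehydrogenase, which the PDK kinases switch off, sends it into the mitochondria. When oxygen falls, the prolyl hydroxylases of the EGLN family stop marking the HIF alpha subunits for destruction by VHL. The stabilized subunits then pair with ARNT at short response elements and raise the transcription of most glycolytic enzymes, of glucose transporters and of genes for pH control, mitophagy and collagen modification. Many melanoma lines keep high rates of lactate production even with oxygen present. Because HIF-1 alpha is controlled mainly through the stability of the protein, the HIF1A mRNA level is not a measure of its activity.

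Library totals ran from 21788397 to 42921242 counts. The members took 1.41% to 1.51% of all reads in the M1 libraries, 1.81% to 1.85% in M2, 1.98% to 2.13% in M0 and 2.19% to 2.30% in Ctrl. M2 replicate 2 had 3759 genes read in no other library, against 160 to 453 in each of the others. M0 replicate 3 was the M0 library with the highest LDHA, PFKM, TPI1 and GAPDH and the lowest HIF1A, SLC2A3 and NDRG1. Where a member's call in M2 against M0 is named below and was lost without 1 or both of these libraries, this is stated. None of 11 macrophage markers passed the filter on low counts, and their summed level was 0.330 to 0.518 CPM, counts scaled to library size, in M1, 0.179 to 0.426 in M2, 0.270 to 0.372 in M0 and 0.469 to 0.532 in Ctrl. The melanocyte markers TYR and S100B were at 0 reads in all 12 libraries, and only MITF of 7 lineage markers passed the filter, so the labelled melanoma cells lack most markers of the pigment cell lineage. Whether the replicates were grown as separate cultures is not stated in the labels. The p-values therefore reflect only how much these samples vary, and that variation may be technical. In bulk RNA, fewer cells of a type and less RNA per cell cannot be told apart.

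The glycolytic enzymes as a group were lowest in M1 cells. Their summed level was 11609 ± 366 CPM in M1, 14105 ± 214 in M2, 16717 ± 898 in M0 and 16672 ± 482 in Ctrl (SD, n = 3 each). ENO1 alone made up 6941 CPM of the M0 sum and 5793 CPM of the Ctrl sum. The 6 genes for lactate, pyruvate and flux control summed to 1240 ± 71.0 CPM in M1, 1520 ± 17.0 in M2, 1869 ± 222 in M0 and 3108 ± 38.6 in Ctrl. Here every conditioned medium lay well below fresh medium. The 7 other hypoxia targets summed to 755 ± 2.38 CPM in M1, 800.0 ± 41.3 in M2, 702.7 ± 92.1 in M0 and 407 ± 21.1 in Ctrl. These sums are weighted to the abundant genes, and the order of the last one rests on NDRG1, singled out after its values were seen. Without NDRG1 the other 6 summed to 500.2 ± 26.4 CPM in M1, 373 ± 20.8 in M2, 336 ± 23.6 in M0 and 351 ± 17.7 in Ctrl. The M1 libraries were then above all others, and the ranges of M2, M0 and Ctrl overlapped one another. Per kilobase of annotated exon in Ctrl, GAPDH was at 1471 CPM per kb, ENO1 at 1098, LDHA at 331 and LDHB at 326, whereas PDK3 was at 0.901 and CA9 at 0.418.

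**Figure D1:**
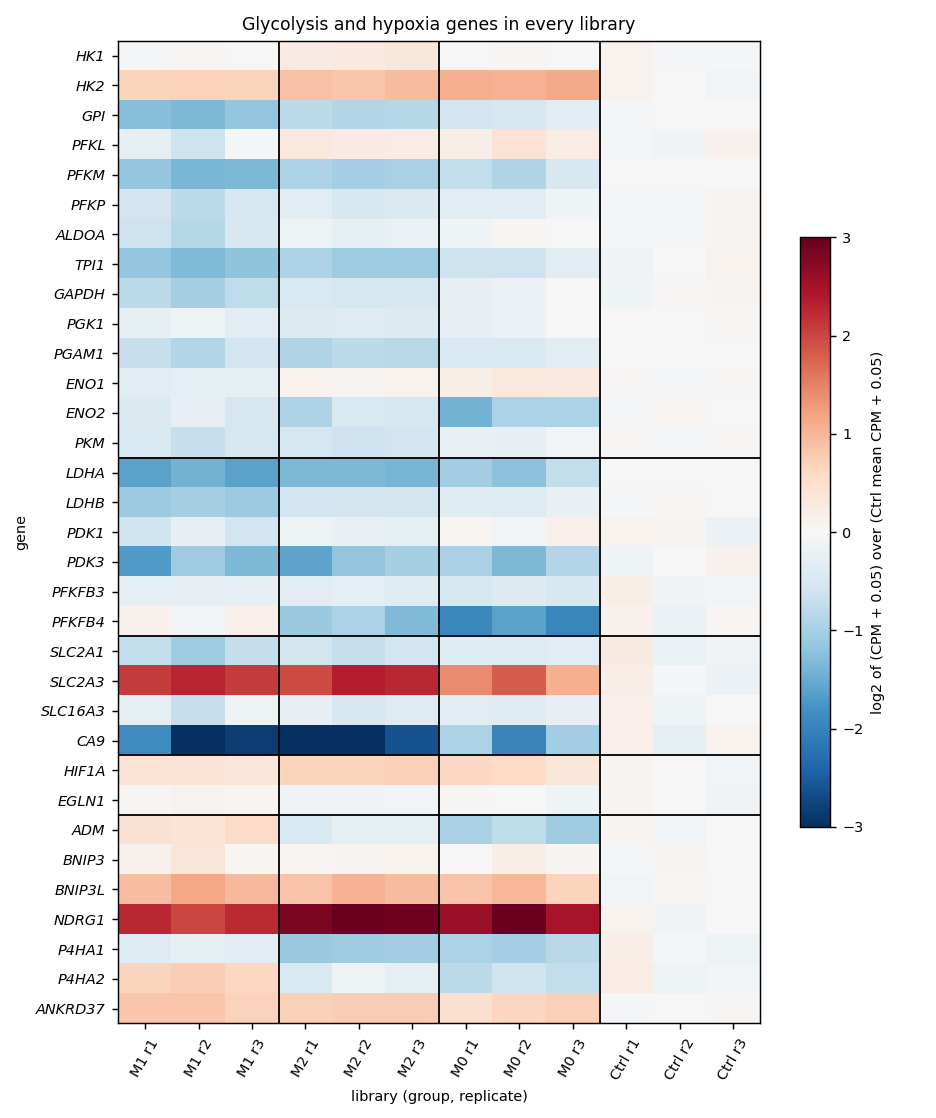
Each row is 1 of the 33 members that passed the filter on low counts and each column 1 of the 12 libraries, ordered M1, M2, M0, Ctrl. Colour gives log2 of (CPM + 0.05) over the Ctrl mean + 0.05, limited at 3 on either side. NDRG1 and SLC2A3 are above the Ctrl mean in all 9 conditioned libraries, LDHA is below it in all 9, and PFKFB4, ADM and P4HA2 are below it in M0 and near or above it in M1.

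Polarization was examined first, since the design names the differences among the 3 macrophage media as its main question. Log2 fold changes and p-values come from edgeR's quasi-likelihood test fitted to all 14088 genes that passed the filter, with Benjamini-Hochberg adjustment over all of them at 0.05. The SE beside a fold change comes from the spread of log2 CPM between libraries. In M1 against M0, 7 of the 33 tested members rose (21.2%) and 17 fell (51.5%), where 25.5% of all genes tested were called higher and 26.7% lower. The median log2 fold change was -0.33 over the members and -0.01 over all genes. Of the 14 glycolytic enzymes tested, 11 fell, and ENO2 rose. Of the 7 other hypoxia targets, ADM, P4HA1 and P4HA2 rose and NDRG1 fell. Lower enzyme transcripts and higher transcripts of a few hypoxia targets were thus found in the same libraries.

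M2 medium gave fewer calls against M0 than M1 medium did. In M2 against M0, 6 members rose (18.2%) and 12 fell (36.4%), against 12.5% and 12.7% of all genes, and the median was -0.15 for the members and 0.00 for all genes. These counts depend on single libraries. Without M0 replicate 3 the 12 falling members became 6, and without M2 replicate 1 or M2 replicate 2 they became 8. Without both M0 replicate 3 and M2 replicate 2 only ADM (log2 fold change 0.50, adjusted p = 0.0275) and TPI1 (-0.37, adjusted p = 0.0392) were still called. In M1 against M2, 5 members rose (15.2%) and 11 fell (33.3%), against 15.9% and 16.6% of all genes. There 8 of the 14 glycolytic enzymes fell, and PFKFB4, EGLN1, ADM, P4HA1 and P4HA2 were the 5 that rose. The median was -0.12 for the members and -0.03 for all genes. A joint test for any difference among M1, M2 and M0 called 26 of the 33 members (78.8%), where it called 56.6% of all genes. The 7 not called were PDK3, BNIP3L, EGLN1, SLC16A3, PFKFB3, BNIP3 and ANKRD37.

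Against fresh medium, more members fell than rose in all 3 conditioned media. In M1 against Ctrl, 9 members rose (27.3%) and 21 fell (63.6%), against 35.2% and 35% of all genes, with medians of -0.33 for the members and 0.00 for all genes. The M2 comparison gave 7 members that rose (21.2%) and 21 that fell (63.6%), where 34.1% and 32.4% of all genes were called, with medians of -0.36 and 0.02. In M0 against Ctrl, 8 rose (24.2%) and 18 fell (54.5%), against 31.1% and 30.6% of all genes, with medians of -0.26 and 0.00. The shares that rose were thus below the background in all 3 and the shares that fell above it. Of the 14 glycolytic enzymes tested, 12 fell in M1 (85.7%), 10 in M2 (71.4%) and 7 in M0 (50%) against Ctrl. Those that rose numbered 1 in M1 (7.14%), 2 in M2 (14.3%) and 3 in M0 (21.4%). The 3 comparisons share their Ctrl libraries and are given side by side only. HK2, SLC2A3, HIF1A, BNIP3L, NDRG1 and ANKRD37 were called higher in each of the 3. CA9 is counted among the members that fell, although it passed the filter only through the Ctrl libraries.

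The promoters of 5 members are shown because these genes stand for the different behaviours. PFKFB4, ADM and P4HA2 were higher in M1 than in M2 and M0, LDHA was lower in each conditioned medium than in Ctrl, and BNIP3 was called in a single comparison. Each line gives the 250 bases before a RefSeq start site (GRCh38.p14), 5′ to 3′ on the gene's own strand. Capitals mark ACGTG or GCGTG on either strand, the core letters of the HIF response element, which overlap the E-box CACGTG where that occurs. The windows are chr3:48556804-48557053 on the minus strand for PFKFB4, chr11:10304823-10305072 on the plus strand for ADM, chr5:132227092-132227341 on the minus strand for P4HA2, chr11:18394313-18394562 on the plus strand for LDHA and chr10:131981924-131982173 on the minus strand for BNIP3.
PFKFB4: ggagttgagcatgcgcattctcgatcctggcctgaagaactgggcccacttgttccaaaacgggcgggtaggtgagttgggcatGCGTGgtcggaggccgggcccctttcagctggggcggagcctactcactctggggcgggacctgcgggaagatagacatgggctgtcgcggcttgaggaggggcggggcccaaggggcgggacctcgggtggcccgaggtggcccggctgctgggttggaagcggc
ADM: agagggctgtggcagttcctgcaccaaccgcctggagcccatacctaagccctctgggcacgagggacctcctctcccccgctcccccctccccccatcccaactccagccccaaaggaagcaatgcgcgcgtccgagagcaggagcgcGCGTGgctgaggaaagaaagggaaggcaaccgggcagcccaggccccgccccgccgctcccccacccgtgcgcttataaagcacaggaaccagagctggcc
P4HA2: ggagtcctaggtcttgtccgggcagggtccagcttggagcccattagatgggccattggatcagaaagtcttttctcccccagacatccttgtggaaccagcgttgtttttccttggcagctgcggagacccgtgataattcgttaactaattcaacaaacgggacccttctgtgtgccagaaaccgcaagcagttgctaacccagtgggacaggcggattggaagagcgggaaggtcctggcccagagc
LDHA: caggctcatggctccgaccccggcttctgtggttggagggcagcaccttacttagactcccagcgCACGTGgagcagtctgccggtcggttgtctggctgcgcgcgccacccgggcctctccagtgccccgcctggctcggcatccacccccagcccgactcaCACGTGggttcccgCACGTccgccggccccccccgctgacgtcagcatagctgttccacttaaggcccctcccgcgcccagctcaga
BNIP3: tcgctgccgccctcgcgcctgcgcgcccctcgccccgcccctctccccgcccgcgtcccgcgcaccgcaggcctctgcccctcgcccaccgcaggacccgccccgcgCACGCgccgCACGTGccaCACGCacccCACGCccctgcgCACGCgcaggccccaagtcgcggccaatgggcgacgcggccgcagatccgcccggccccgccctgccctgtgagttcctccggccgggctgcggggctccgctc
PFKFB4 held 1 match, at position -166 from the start site, ADM held 1 at -101, LDHA held 5 and BNIP3 held 6. Because CACGTG reads the same on both strands, each copy counts as a pair of overlapping matches, and LDHA has 2 such copies and BNIP3 has 1. No match lay in the P4HA2 window, which says only that these letters are not in these 250 bases. The pattern was found in 43.1% of the first windows of 27305 genes and in 20 of the 32 members that had an entry (62.5%). A match is a description of the letters and not a mapped binding site. GENCODE release 29 also annotates starts farther upstream, at 48562015 for PFKFB4, 10304680 for ADM and 132295315 for P4HA2. Which start these cells use was not measured, so the windows may not be the promoters in use.

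The first steps of glycolysis trap glucose in the cell and commit it to the pathway. HK2, the inducible hexokinase that attaches to mitochondria, had 122, 124 and 122 CPM in M1, 142, 138 and 148 in M2, 163, 158 and 171 in M0, and 82.6, 76.1 and 72.7 in Ctrl. No libraries of different groups overlapped, and every conditioned library lay above every Ctrl library, with M0 highest. HK2 rose in M1 against Ctrl (log2 fold change 0.67, SE 0.05, adjusted p = 9.6e-08), in M2 against Ctrl (0.89, SE 0.06, adjusted p = 6.01e-09) and in M0 against Ctrl (1.09, SE 0.06, adjusted p = 7.97e-10). It fell in M1 against M0 (-0.41, SE 0.03, adjusted p = 4.93e-05). The smaller differences of M2 against M0 (-0.20, adjusted p = 0.0267) and M1 against M2 (-0.22, adjusted p = 0.0127) were each lost when single libraries were left out. These were M1 replicate 1 or M2 replicate 3 for M1 against M2, and any of the 3 M2 libraries, M0 replicate 1 or M0 replicate 3 for M2 against M0 (adjusted p = 0.0512 to 0.115). HK1, the housekeeping hexokinase, averaged 278 ± 7.06 CPM in M1, 340.4 ± 13.6 in M2, 283 ± 5.22 in M0 and 279 ± 16.5 in Ctrl (SD, n = 3 each). HK1 rose in M2 against Ctrl (0.29, adjusted p = 0.00045) and M2 against M0 (0.27, adjusted p = 0.00534), and was lower in M1 than in M2 (-0.29, adjusted p = 0.00138). The HK1 call in M2 against M0 was lost without both M0 replicate 3 and M2 replicate 2 (0.27, adjusted p = 0.0612).

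GPI, which interconverts glucose and fructose phosphates, had 227, 218 and 249 CPM in M1, 323, 303 and 306 in M2, 372, 385 and 436 in M0, and 542, 557 and 559 in Ctrl. The 4 groups formed separate steps, with M1 lowest and Ctrl highest. GPI fell in M1 against M0 (log2 fold change -0.78, SE 0.09, adjusted p = 3.73e-07), M2 against M0 (-0.36, SE 0.08, adjusted p = 0.00278) and M1 against M2 (-0.43, SE 0.06, adjusted p = 0.000255). The M2 against M0 call was lost without both M0 replicate 3 and M2 replicate 2 (-0.26, adjusted p = 0.0797). Against Ctrl the fall was -1.26 in M1 (SE 0.06, adjusted p = 3.42e-10), -0.83 in M2 (SE 0.03, adjusted p = 4.78e-08) and -0.48 in M0 (SE 0.07, adjusted p = 2.37e-05).

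Phosphofructokinase, the committed step, is built from muscle, liver and platelet type subunits. The muscle type, PFKM, had 38.9, 33.8 and 34.3 CPM in M1, 46.1, 42.9 and 44.4 in M2, 51.6, 46.6 and 62.1 in M0, and 87.3, 85.5 and 87.7 in Ctrl. All conditioned libraries were far below the Ctrl libraries, and the M2 and M0 ranges nearly touched. PFKM fell against Ctrl in M1 (log2 fold change -1.28, SE 0.07, adjusted p = 4.7e-09), M2 (-0.97, SE 0.03, adjusted p = 1.47e-07) and M0 (-0.70, SE 0.12, adjusted p = 6.12e-06), and in M1 against M0 (-0.58, SE 0.14, adjusted p = 7.94e-05). Its M2 against M0 difference (-0.27, SE 0.12, adjusted p = 0.0414) was -0.14 with an adjusted p = 0.27 without M0 replicate 3, and was also lost without any of the 3 M2 libraries, M0 replicate 1, Ctrl replicate 2 or Ctrl replicate 3. M1 against M2 (-0.32, SE 0.07, adjusted p = 0.0135) was lost without M1 replicate 2, M1 replicate 3 or M2 replicate 1. The platelet type, PFKP, averaged 171 ± 17.2 CPM in M1, 198 ± 11.4 in M2, 219.8 ± 18.2 in M0 and 263 ± 14.3 in Ctrl, and fell in each conditioned medium against Ctrl. PFKL, the liver type, averaged 45.7 ± 9.03 CPM in M1, 66.9 ± 2.15 in M2, 68.0 ± 6.40 in M0 and 55.9 ± 4.95 in Ctrl. It was lower in M1 than in M0 (-0.57, adjusted p = 0.000731) and in M2 (-0.55, adjusted p = 0.00187). The PFKL call in M0 against Ctrl (0.28, adjusted p = 0.0429) was lost without M1 replicate 1, any M2 library, any M0 library, Ctrl replicate 1 or Ctrl replicate 2. With all libraries it was also lost with DESeq2 size factors (adjusted p = 0.0577), library totals only (0.149), the DESeq2 test (0.0514) and limma (0.0563). The PFKL call in M1 against Ctrl (-0.29, adjusted p = 0.0351) was lost without M1 replicate 1, M1 replicate 2 (-0.14, adjusted p = 0.207), M2 replicate 1, M0 replicate 1, M0 replicate 3, Ctrl replicate 1 or Ctrl replicate 3.

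**Figure D2:**
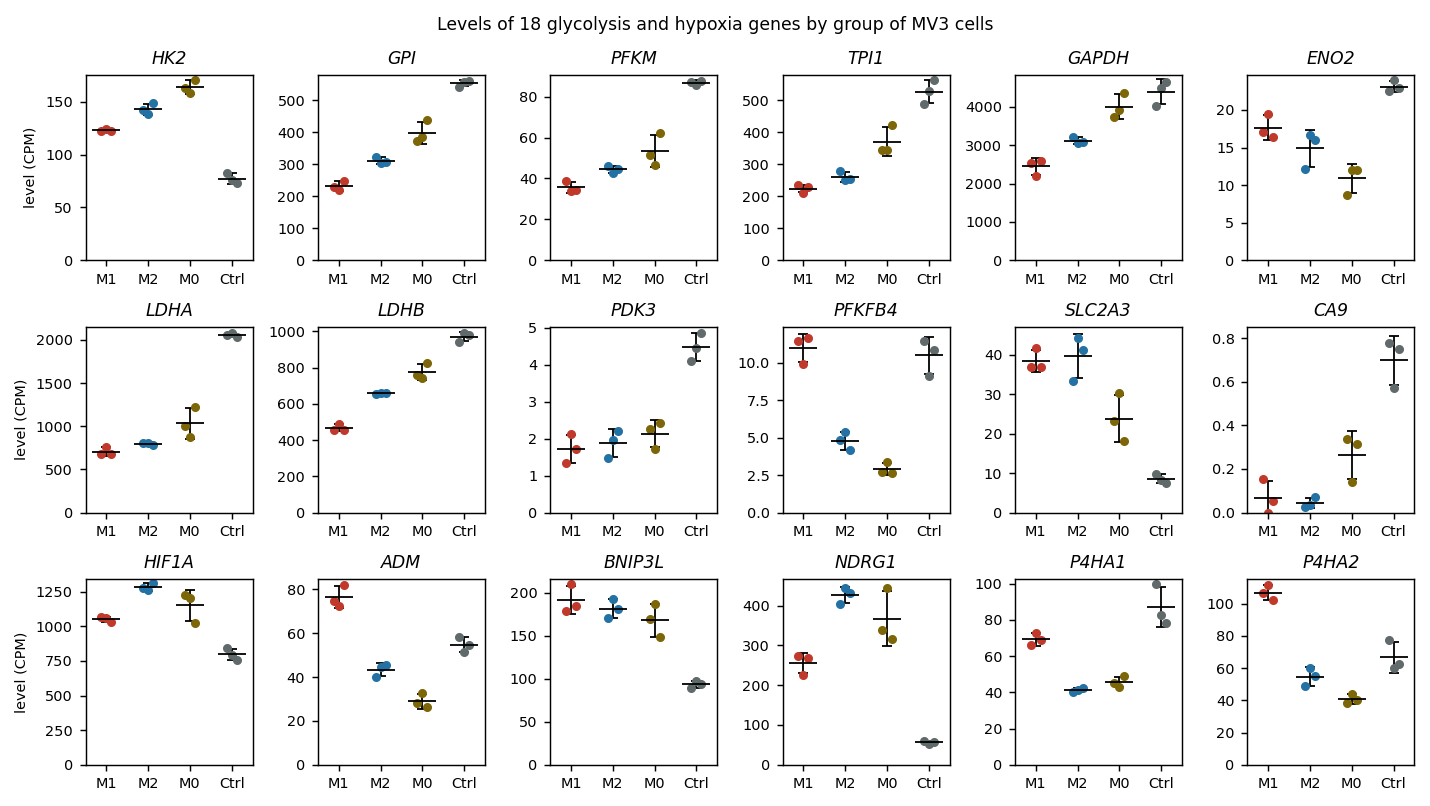
Each panel gives 1 member in CPM, with a point for each library and the mean ± SD of the 3 libraries in M1, M2, M0 and Ctrl from left to right. The vertical axes differ between panels: GAPDH reaches 4656 CPM and CA9 stays below 1 CPM. In the panels of PFKFB4, ADM and P4HA2 the M0 libraries are the lowest of the 12, and in that of HK2 they are the highest.

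The middle steps split the sugar and harvest its first energy. TPI1, which interconverts the 3-carbon sugar phosphates, had 234, 211 and 228 CPM in M1, 279, 249.8 and 253 in M2, 344, 343 and 422 in M0, and 489, 527 and 562 in Ctrl. The groups again stood apart, in the order M1, M2, M0, Ctrl. TPI1 fell in M1 against M0 (log2 fold change -0.72, SE 0.11, adjusted p = 6.11e-06) and in M2 against M0 (-0.51, SE 0.11, adjusted p = 0.00132). The M1 against M2 difference did not pass (-0.22, SE 0.07, adjusted p = 0.0616). Against Ctrl it fell by 1.23 in M1 (adjusted p = 4.15e-09), by 1.01 in M2 (adjusted p = 4.92e-08) and by 0.51 in M0 (adjusted p = 8.45e-05), all on the log2 scale.

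GAPDH, which makes the first high-energy intermediate and NADH and is often used as a reference gene, had 2546, 2200 and 2592 CPM in M1, 3217, 3045 and 3074 in M2, 3722, 3908 and 4365 in M0, and 4024, 4479 and 4656 in Ctrl. M1 and M2 libraries lay below all M0 and Ctrl libraries, and the M0 and Ctrl ranges overlapped. GAPDH fell in M1 against M0 (log2 fold change -0.71, SE 0.10, adjusted p = 3.99e-06), in M2 against M0 (-0.36, SE 0.07, adjusted p = 0.00505) and in M1 against M2 (-0.35, SE 0.08, adjusted p = 0.00352). It was also lower in M1 (-0.84, SE 0.10, adjusted p = 1.46e-07) and M2 (-0.50, SE 0.07, adjusted p = 5.09e-05) than in Ctrl, while M0 against Ctrl did not pass (-0.13, SE 0.09, adjusted p = 0.157). The GAPDH call in M2 against M0 was lost without both M0 replicate 3 and M2 replicate 2 (-0.27, adjusted p = 0.127). Expressed as a fold change, M1 cells had 0.558 times the GAPDH of Ctrl cells.

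Aldolase A, the main aldolase outside liver and brain, averaged 712 ± 89.7 CPM in M1, 967 ± 36.4 in M2, 1091 ± 65.4 in M0 and 1114 ± 60.7 in Ctrl for the ALDOA gene. It fell in M1 against M0 (log2 fold change -0.62, adjusted p = 2.15e-05), M1 against M2 (-0.44, adjusted p = 0.000803) and M1 against Ctrl (-0.65, adjusted p = 4.17e-06). ALDOC, the brain type, did not pass the filter. It had 11 reads in M1, 16 in M2, 14 in M0 and 54 in Ctrl, of which 36 came from Ctrl replicate 1. PGK1, which makes the first ATP of the pathway, averaged 1080 ± 73.6 CPM in M1, 961 ± 10.2 in M2, 1150 ± 90.3 in M0 and 1271 ± 20.9 in Ctrl. PGK1 was 1 of the 2 tested enzymes with no call in M1 against M0 (-0.09, adjusted p = 0.265), the other being HK1. PGAM1, a phosphoglycerate mutase, averaged 16.6 ± 1.74 CPM in M1, 15.1 ± 0.598 in M2, 20.4 ± 1.03 in M0 and 27.2 ± 0.409 in Ctrl. Its pseudogenes held 0.972% to 7.83% as many reads as PGAM1 did, so its count is less certain than those of the other enzymes.

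The enolases, which make phosphoenolpyruvate, were called in opposite directions in M1 against M0. ENO2, the neuronal type, had 17.0, 19.5 and 16.4 CPM in M1, 12.1, 16.7 and 15.95 in M2, 8.64, 12.01 and 12.02 in M0, and 22.5, 23.9 and 22.9 in Ctrl. Ctrl libraries were above all others, M1 libraries were above all M0 libraries, and M1 and M2 overlapped. ENO2 rose in M1 against M0 (log2 fold change 0.70, SE 0.18, adjusted p = 0.000538) and fell in M0 against Ctrl (-1.09, SE 0.16, adjusted p = 4.7e-06) and M2 against Ctrl (-0.63, SE 0.15, adjusted p = 0.000498). Its rise in M2 against M0 (0.45, SE 0.21, adjusted p = 0.0257) was lost without M2 replicate 2, M2 replicate 3 or M0 replicate 1, and its fall in M1 against Ctrl (-0.39, SE 0.08, adjusted p = 0.0129) without M1 replicate 3 (-0.33, adjusted p = 0.0582). ENO1, the ubiquitous enolase, averaged 4706 ± 101 CPM in M1, 6182 ± 18.4 in M2, 6941 ± 304 in M0 and 5793 ± 215 in Ctrl. It fell in M1 against M0 (-0.56, adjusted p = 1.25e-06) and M1 against M2 (-0.39, adjusted p = 7.2e-05), and rose in M0 against Ctrl (0.26, adjusted p = 0.000831). PKM, the pyruvate kinase that ends the pathway, averaged 1522 ± 128 CPM in M1, 1489 ± 57.9 in M2, 1949 ± 120.1 in M0 and 2217 ± 91.3 in Ctrl. PKM fell in M1 against M0 (-0.36, adjusted p = 0.000618) and M2 against M0 (-0.39, adjusted p = 0.00198), and M1 and M2 were not told apart (0.03, adjusted p = 0.772). The PKM call in M2 against M0 was lost without both M0 replicate 3 and M2 replicate 2 (-0.30, adjusted p = 0.0665).

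Lactate dehydrogenase carries the next step. LDHA, the subunit that favours lactate formation, had 678, 764 and 678 CPM in M1, 811, 807 and 781 in M2, 999, 874 and 1222 in M0, and 2053, 2081 and 2031 in Ctrl. Every conditioned library was far below the Ctrl libraries. LDHA fell against Ctrl in M1 (log2 fold change -1.54, SE 0.06, adjusted p = 1.09e-09), M2 (-1.36, SE 0.02, adjusted p = 6.05e-09) and M0 (-0.99, SE 0.14, adjusted p = 2.39e-07), which are fold changes of 0.344, 0.389 and 0.502. It was also lower in M1 than in M0 (-0.55, SE 0.15, adjusted p = 0.000182). The M2 against M0 fall (-0.37, SE 0.14, adjusted p = 0.0106) was lost without M0 replicate 3 (-0.22, adjusted p = 0.0513), and M1 against M2 did not pass (-0.18, adjusted p = 0.155).

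LDHB, the subunit that favours the return to pyruvate, had 458, 491 and 454 CPM in M1, 657, 659 and 659 in M2, 761, 743 and 827 in M0, and 942, 993 and 980.4 in Ctrl. The 4 groups did not overlap and kept the order seen for GPI and TPI1. LDHB fell in M1 against M0 (log2 fold change -0.73, SE 0.06, adjusted p = 1.12e-07), M1 against M2 (-0.49, SE 0.03, adjusted p = 1.11e-05) and M2 against M0 (-0.24, SE 0.05, adjusted p = 0.00871). Against Ctrl it fell by 1.05 in M1 (adjusted p = 3.46e-10), by 0.56 in M2 (adjusted p = 5.25e-07) and by 0.32 in M0 (adjusted p = 0.000188) on the log2 scale. The LDHB call in M2 against M0 was lost without both M0 replicate 3 and M2 replicate 2 (-0.19, adjusted p = 0.121).

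PDK1 and PDK3 are kinases that switch off pyruvate dehydrogenase. PDK3 had 1.34, 2.11 and 1.72 CPM in M1, 1.46, 1.95 and 2.22 in M2, 2.26, 1.72 and 2.42 in M0, and 4.09, 4.45 and 4.85 in Ctrl. The 3 conditioned groups overlapped, and all of their libraries lay below Ctrl. PDK3 fell against Ctrl in M1 (log2 fold change -1.38, SE 0.19, adjusted p = 9.03e-06), M2 (-1.26, SE 0.18, adjusted p = 2.99e-05) and M0 (-1.05, SE 0.16, adjusted p = 0.000208), with no call between the conditioned media. PDK1 averaged 17.3 ± 2.49 CPM in M1, 20.7 ± 0.771 in M2, 24.8 ± 2.15 in M0 and 23.9 ± 2.48 in Ctrl. PDK1 fell in M1 against M0 (-0.52, adjusted p = 0.000855) and M1 against Ctrl (-0.47, adjusted p = 0.00102).

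PFKFB3 and PFKFB4 make and break fructose 2,6-bisphosphate, the strongest activator of phosphofructokinase, and both are known hypoxia targets. PFKFB4 had 11.5, 9.95 and 11.6 CPM in M1, 4.83, 5.39 and 4.18 in M2, 2.70, 3.40 and 2.66 in M0, and 11.5, 9.14 and 10.9 in Ctrl. M1 and Ctrl overlapped, M2 lay clearly below both, and M0 was lowest. PFKFB4 had the highest M1 against M0 fold change of the members (log2 1.93, SE 0.13, fold change 3.81, adjusted p = 4.06e-08) and also rose in M1 against M2 (1.199, SE 0.13, adjusted p = 4.37e-06). It rose in M2 against M0 (0.73, SE 0.15, adjusted p = 0.00364), a call lost without both M0 replicate 3 and M2 replicate 2 (0.59, adjusted p = 0.0869). PFKFB4 fell in M0 against Ctrl (-1.86, SE 0.15, adjusted p = 2.16e-08) and M2 against Ctrl (-1.13, SE 0.14, adjusted p = 1.66e-06), whereas M1 against Ctrl did not pass (0.07, SE 0.12, adjusted p = 0.637). PFKFB3 averaged 35.8 ± 0.237 CPM in M1, 34.3 ± 0.882 in M2, 30.9 ± 0.8999 in M0 and 42.8 ± 4.50 in Ctrl, and fell in each conditioned medium against Ctrl. Its rise in M1 against M0 (0.21, adjusted p = 0.0286) was lost without M1 replicate 3 or M0 replicate 1.

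**Figure D3:**
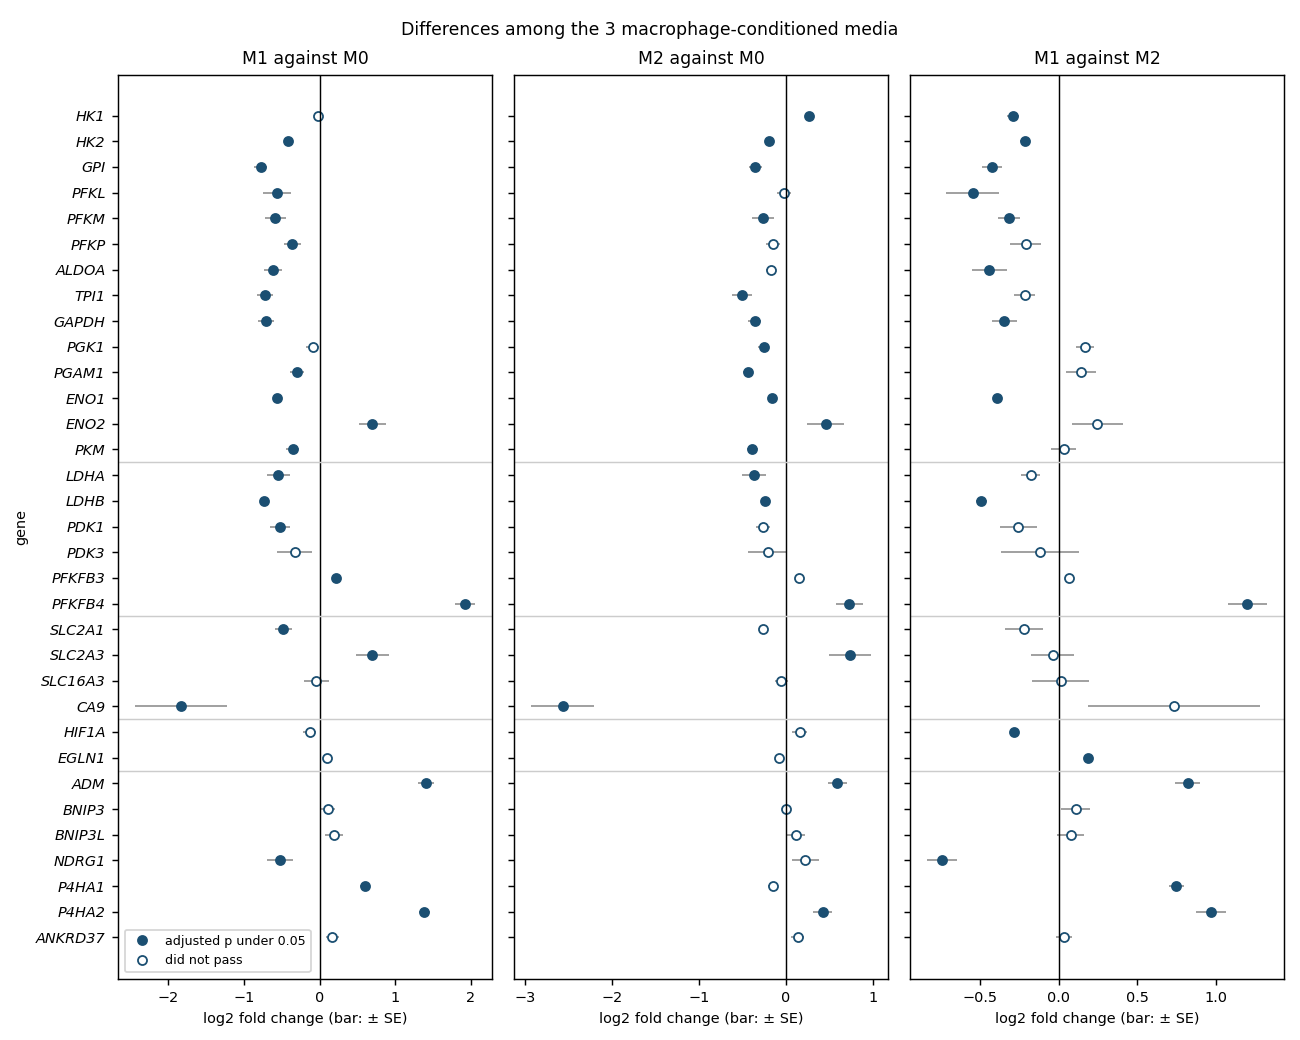
Log2 fold changes of the 33 tested members among the macrophage media, in panels for M1 against M0, M2 against M0 and M1 against M2. Bars are ± 1 SE, filled points have an adjusted p under 0.05, the line at 0 marks no difference, and horizontal scales differ between panels. In M1 against M0 most glycolytic enzymes lie left of 0, at or above -0.78, while PFKFB4 (1.93), ADM (1.41) and P4HA2 (1.39) lie farthest right.

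Glucose enters by facilitative transporters, and lactate and acid leave by others. SLC2A3, the high-affinity transporter GLUT3, had 36.8, 41.7 and 36.9 CPM in M1, 33.3, 44.1 and 41.3 in M2, 23.1, 30.2 and 18.2 in M0, and 9.84, 8.31 and 7.60 in Ctrl. M1 and M2 overlapped and stood above all M0 libraries, and M0 stood above all Ctrl libraries. SLC2A3 rose against Ctrl in M1 (log2 fold change 2.16, SE 0.12, adjusted p = 9.28e-09), M2 (2.195, SE 0.16, adjusted p = 1.11e-08) and M0 (1.46, SE 0.24, adjusted p = 1.53e-06), which are fold changes of 4.45, 4.58 and 2.75. It also rose in M1 against M0 (0.70, SE 0.22, adjusted p = 0.00124) and in M2 against M0 (0.74, SE 0.24, adjusted p = 0.00364), the last being lost without both M0 replicate 3 and M2 replicate 2 (0.49, adjusted p = 0.0771). The basal transporter GLUT1, encoded by SLC2A1, averaged 145 ± 18.8 CPM in M1, 169 ± 8.70 in M2, 202 ± 5.18 in M0 and 258 ± 46.5 in Ctrl. SLC2A1 fell in M1 against Ctrl (-0.83, adjusted p = 5.73e-06), M2 against Ctrl (-0.61, adjusted p = 0.000143) and M1 against M0 (-0.48, adjusted p = 0.00185). Its fall in M0 against Ctrl (-0.35, adjusted p = 0.0113) was lost without Ctrl replicate 1. The lactate exporter MCT4, encoded by SLC16A3, averaged 181 ± 34.4 CPM in M1, 179 ± 15.2 in M2, 186 ± 7.62 in M0 and 231 ± 23.5 in Ctrl. SLC16A3 was lower than Ctrl in each conditioned medium (-0.35 in M1, -0.36 in M2 and -0.31 in M0, adjusted p = 0.0117, 0.0104 and 0.0277), and all 3 calls were lost without Ctrl replicate 1.

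CA9, a cell surface carbonic anhydrase and a classical hypoxia marker, was barely detected. It had 6, 0 and 2 reads in M1, 1, 1 and 2 in M2, 10, 3 and 9 in M0, and 34, 17 and 24 in Ctrl. A count of 0 allows up to 3 reads, or 0.0699 to 0.138 CPM in a single library, a limit for counting error only. The Ctrl libraries were the highest 3 of the 12, and CA9 passed the filter only through them, so its calls against Ctrl support nothing further. The fitted log2 fold changes were -3.18 in M1 (adjusted p = 2.73e-05), -3.92 in M2 (adjusted p = 1.82e-05) and -1.35 in M0 (adjusted p = 0.00893) against Ctrl. Without M1 replicate 1, CA9 in M1 against Ctrl was at -4.40 and in M1 against M0 at -3.05 in place of -1.83 (adjusted p = 0.0199 with all libraries). The call in M1 against M0 was lost without M1 replicate 2, M1 replicate 3, M0 replicate 1 or M0 replicate 3, and that in M2 against M0 (-2.57, adjusted p = 0.0166) without M2 replicate 1, M2 replicate 2, M0 replicate 1 or M0 replicate 3.

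**Figure D4:**
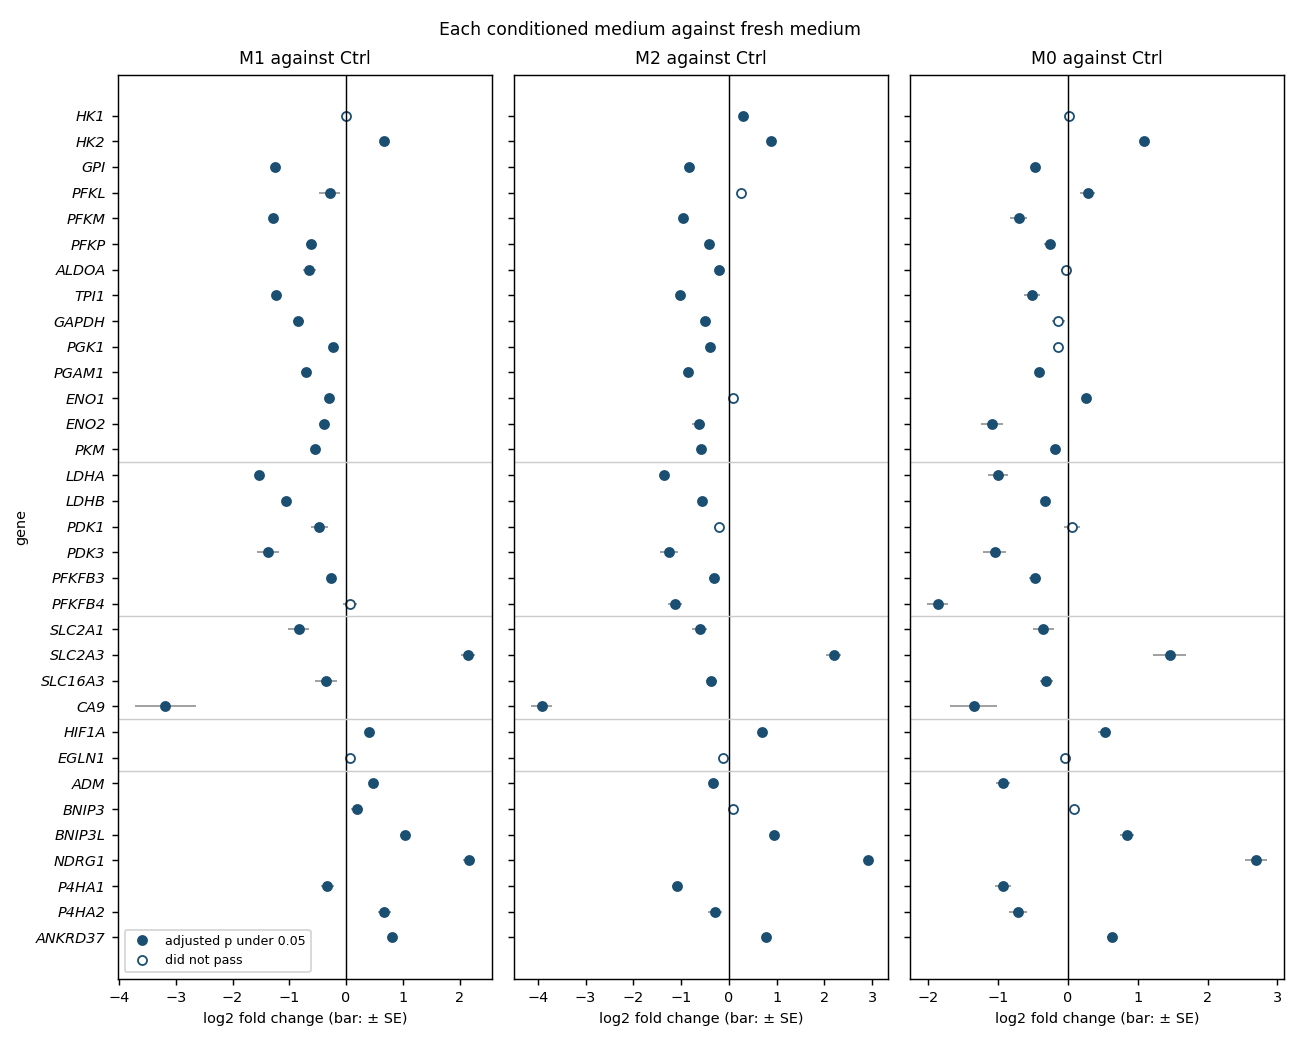
Log2 fold changes of the 33 tested members against Ctrl, in panels for M1, M2 and M0. Bars are ± 1 SE, filled points have an adjusted p under 0.05, the line at 0 marks no difference, and horizontal scales differ between panels. NDRG1 (2.17, 2.91 and 2.69 in M1, M2 and M0) and SLC2A3 (2.16, 2.195 and 1.46) lie right of 0 in every panel and LDHA (-1.54, -1.36 and -0.99) left of it.

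Of the oxygen sensing members, HIF1A was called against Ctrl and EGLN1 was not. HIF1A, the regulated alpha subunit, had 1065, 1057 and 1030 CPM in M1, 1274, 1259 and 1315 in M2, 1226, 1205 and 1026 in M0, and 842, 792 and 758 in Ctrl. All conditioned libraries were above Ctrl, M2 was above the rest, and the M0 range took in that of M1 through M0 replicate 3. HIF1A rose against Ctrl in M1 (log2 fold change 0.40, SE 0.05, adjusted p = 9.43e-05), M2 (0.69, SE 0.05, adjusted p = 3.91e-07) and M0 (0.53, SE 0.09, adjusted p = 7.91e-06). It was lower in M1 than in M2 (-0.29, SE 0.02, adjusted p = 0.0048), and neither differed from M0 past the threshold (M1 -0.13, adjusted p = 0.119, and M2 0.15, adjusted p = 0.111). EGLN1, the main HIF prolyl hydroxylase, averaged 78.2 ± 1.83 CPM in M1, 68.9 ± 1.14 in M2, 72.8 ± 3.97 in M0 and 74.7 ± 4.40 in Ctrl. Its call in M1 against M2 (0.18, adjusted p = 0.0349) was lost without M1 replicate 2, M1 replicate 3 or any of the M2 libraries. EGLN3, a strongly inducible member of that family, had 1 read, in M2 replicate 2, and 0 in the other 11 libraries.

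Among the other hypoxia targets, ADM and the collagen prolyl hydroxylase subunits were higher in M1 than in M2 and M0. ADM, the precursor of the vasodilator peptide adrenomedullin, had 74.8, 72.5 and 81.9 CPM in M1, 40.0, 44.8 and 45.3 in M2, 28.0, 32.5 and 26.1 in M0, and 58.3, 51.6 and 54.5 in Ctrl. No groups overlapped: M1 was above Ctrl, and M2 and M0 below it. ADM rose in M1 against M0 (log2 fold change 1.41, SE 0.11, adjusted p = 5.48e-09), M1 against M2 (0.82, SE 0.08, adjusted p = 2.5e-06) and M2 against M0 (0.59, SE 0.11, adjusted p = 0.000856). Against Ctrl it rose in M1 (0.48, SE 0.07, adjusted p = 9.79e-05) and fell in M2 (-0.34, SE 0.08, adjusted p = 0.00236) and M0 (-0.93, SE 0.11, adjusted p = 2.32e-07).

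P4HA1 and P4HA2 are alternative catalytic subunits of the enzyme that hydroxylates proline in procollagen. P4HA2 had 106, 112 and 102 CPM in M1, 48.6, 60.2 and 55.4 in M2, 38.4, 44.1 and 40.1 in M0, and 77.6, 59.8 and 62.7 in Ctrl. M1 was above every other library, M0 below every other, and M2 and Ctrl overlapped. P4HA2 rose in M1 against M0 (log2 fold change 1.39, SE 0.07, fold change 2.61, adjusted p = 3.52e-08), M1 against M2 (0.97, SE 0.10, adjusted p = 2.02e-06), M1 against Ctrl (0.68, SE 0.12, adjusted p = 1.36e-05) and M2 against M0 (0.42, SE 0.11, adjusted p = 0.00775, lost without both M0 replicate 3 and M2 replicate 2). It fell in M0 against Ctrl (-0.71, SE 0.13, adjusted p = 1.72e-05), and its fall in M2 against Ctrl (-0.29, SE 0.15, adjusted p = 0.0167) was lost without M2 replicate 1 or Ctrl replicate 1. P4HA1 had 66.0, 72.6 and 68.8 CPM in M1, 40.0, 41.5 and 42.1 in M2, 45.2, 43.1 and 48.8 in M0, and 99.6, 82.8 and 78.5 in Ctrl. Here Ctrl was highest, M1 next, and M2 lowest, with no overlap, but M2 against M0 did not pass (log2 fold change -0.15, adjusted p = 0.208). P4HA1 rose in M1 against M0 (0.60, SE 0.07, adjusted p = 3.49e-05) and M1 against M2 (0.75, SE 0.05, adjusted p = 6.66e-06), and fell against Ctrl in M1 (-0.33, SE 0.11, adjusted p = 0.00203), M2 (-1.08, SE 0.11, adjusted p = 2.32e-08) and M0 (-0.93, SE 0.12, adjusted p = 1.62e-07).

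NDRG1, a growth-restraining gene induced by hypoxia and by other stresses, had 272, 226 and 268 CPM in M1, 404, 444 and 432 in M2, 338, 445 and 317 in M0, and 60.7, 52.4 and 56.7 in Ctrl. Every conditioned library was well above Ctrl, M1 lay below M2 and M0, and M2 and M0 overlapped. NDRG1 rose against Ctrl in M1 (log2 fold change 2.17, SE 0.11, adjusted p = 1.85e-10), M2 (2.91, SE 0.07, adjusted p = 1.18e-11) and M0 (2.69, SE 0.16, adjusted p = 3.08e-11), which are fold changes of 4.51, 7.53 and 6.47. In contrast to ADM and P4HA2, it fell in M1 against M0 (-0.52, SE 0.17, adjusted p = 0.000944) and M1 against M2 (-0.74, SE 0.10, adjusted p = 0.000101).

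BNIP3 and BNIP3L are receptors that mark mitochondria for removal by autophagy. BNIP3L had 179, 210.1 and 185 CPM in M1, 170.4, 193 and 181 in M2, 169, 187 and 148 in M0, and 89.1, 97.3 and 94.5 in Ctrl. The conditioned groups overlapped one another and lay above all Ctrl libraries. BNIP3L rose against Ctrl in M1 (log2 fold change 1.03, SE 0.08, adjusted p = 3.39e-08), M2 (0.96, SE 0.06, adjusted p = 1.08e-07) and M0 (0.84, SE 0.10, adjusted p = 5.64e-07). BNIP3, its close relative, averaged 53.8 ± 5.96 CPM in M1, 49.9 ± 0.712 in M2, 50.0 ± 2.79 in M0 and 47.0 ± 2.51 in Ctrl. The single call for BNIP3, in M1 against Ctrl (0.19, adjusted p = 0.0358), was lost without M1 replicate 2, Ctrl replicate 1 or Ctrl replicate 3. ANKRD37, a small ankyrin repeat protein gene used in hypoxia signatures, averaged 2.67 ± 0.160 CPM in M1, 2.61 ± 0.0509 in M2, 2.38 ± 0.203 in M0 and 1.53 ± 0.0408 in Ctrl. It rose against Ctrl in M1 (0.80, adjusted p = 0.000107), M2 (0.77, adjusted p = 0.00021) and M0 (0.64, adjusted p = 0.0015).

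Because several members are alternative forms of 1 enzyme, their shares were computed from CPM per kilobase within each family, as a description. HK2 made up 31.5% ± 0.409 of HK1 and HK2 together in M1, 30.4% ± 0.692 in M2, 37.5% ± 1.22 in M0 and 22.3% ± 0.420 in Ctrl (SD, n = 3 each). LDHA made up 42.0% ± 0.667 of the lactate dehydrogenase pair in M1, 36.8% ± 0.487 in M2, 38.8% ± 2.71 in M0 and 50.4% ± 0.671 in Ctrl. The share of SLC2A3 in the SLC2A1 and SLC2A3 pair was 17.1% ± 3.04 in M1, 15.3% ± 2.43 in M2, 8.28% ± 2.11 in M0 and 2.504% ± 0.225 in Ctrl. P4HA2 held 36.0% ± 0.924 of the P4HA1 and P4HA2 pair in M1, 32.5% ± 1.92 in M2, 24.6% ± 2.23 in M0 and 21.8% ± 0.892 in Ctrl. For the phosphofructokinases, PFKM held 10.8% ± 1.07 in M1, 11.1% ± 0.233 in M2, 12.1% ± 0.949 in M0 and 16.4% ± 0.665 in Ctrl. ENO2 stayed below 1% of enolase in all groups, with 0.459% ± 0.0408 in M1, 0.296% ± 0.0486 in M2, 0.192% ± 0.0269 in M0 and 0.490% ± 0.0348 in Ctrl. The lengths count every annotated exon of a gene, whether or not these cells use it, so the size of each share depends on them. They were 3093 nt for P4HA1 and 8502 nt for P4HA2, whose mean CPM in M1 were 69.2 and 106.8. For LDHA and LDHB they were 6210 and 2983 nt, with 2055 and 972 CPM in Ctrl. The lengths of the transcripts present were not measured. These mRNA shares do not give protein or enzyme activity.

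**Figure D5:**
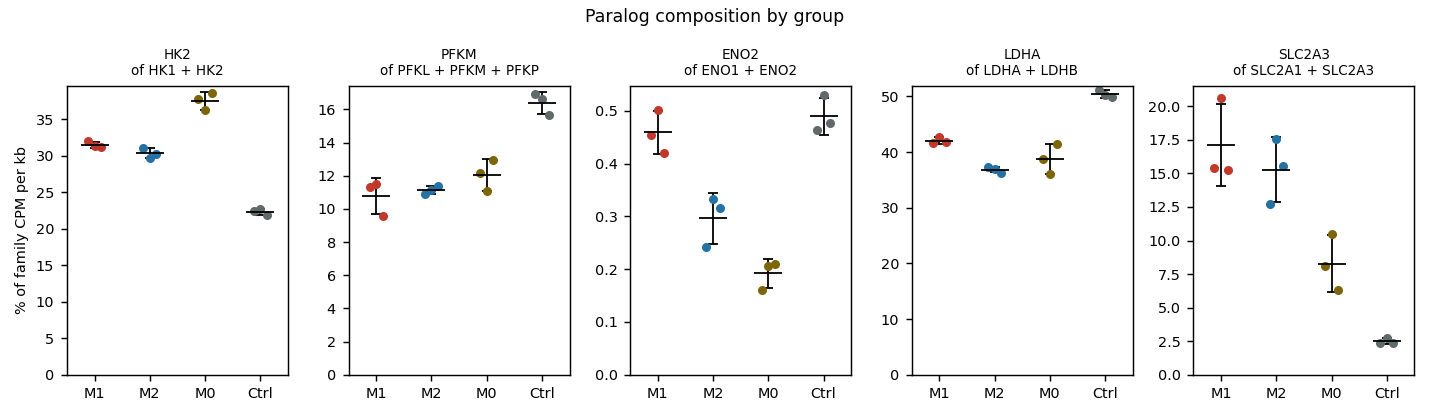
Share of HK2, PFKM, ENO2, LDHA and SLC2A3 in the CPM per kilobase of their family, in percent, with a point for each library and the mean ± SD of 3 libraries in M1, M2, M0 and Ctrl from left to right. HK2 and SLC2A3 take a larger share in every conditioned medium than in Ctrl (22.3% and 2.504% there), and LDHA and PFKM take a smaller one.

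Neighbouring genes of the same pathways are described next. Their lists, like those of the HIF system and of other hypoxia targets below, were chosen with earlier results of these data known. Of 26 other glycolysis and transport genes, 13 were tested. In M1 against M0, 3 of them rose (23.1%) and 1 fell (7.69%), with a median of 0.09 log2, where 25.5% of all genes rose and 26.7% fell. The share that rose was near that background. BPGM, which makes 2,3-bisphosphoglycerate, averaged 10.6 ± 0.688 CPM in M1, 4.28 ± 0.245 in M2, 4.36 ± 0.938 in M0 and 11.5 ± 0.654 in Ctrl. BPGM rose in M1 against M0 (log2 fold change 1.28, SE 0.18, adjusted p = 1.64e-06) and fell in M2 against Ctrl (-1.42, SE 0.07, adjusted p = 1.23e-07) and M0 against Ctrl (-1.38, SE 0.18, adjusted p = 2.49e-07). HKDC1, a hexokinase relative, rose in M1 against Ctrl (1.37, adjusted p = 0.0025) and was also called higher in M2 against Ctrl, but not in M0 against Ctrl. Its levels were 0.788 ± 0.239 CPM in M1, 0.686 ± 0.120 in M2, 0.467 ± 0.258 in M0 and 0.306 ± 0.0352 in Ctrl. HKDC1 in M1 against M2 did not pass (0.22, adjusted p = 0.635). SLC2A13, a proton-coupled inositol transporter of the same family as the glucose transporters, averaged 0.518 ± 0.0766 CPM in M1, 0.393 ± 0.0589 in M2, 0.358 ± 0.0580 in M0 and 0.956 ± 0.0168 in Ctrl, and fell in all 3 conditioned media against Ctrl. Among 12 tested genes for the entry of pyruvate into mitochondria, 5 fell (41.7%) and 1 rose (8.33%) in M1 against M0, against the same 26.7% and 25.5% of all genes. PC, the pyruvate carboxylase, averaged 5.51 ± 1.81 CPM in M1, 11.3 ± 1.35 in M2, 14.0 ± 1.28 in M0 and 21.0 ± 1.34 in Ctrl. PC fell in M1 against M0 (-1.33, SE 0.32, adjusted p = 2.07e-05) and M1 against Ctrl (-1.92, SE 0.31, adjusted p = 9.31e-08). DLAT, a pyruvate dehydrogenase subunit, fell in M1 (-0.78, adjusted p = 1.35e-08), M2 (-0.82, adjusted p = 1.18e-08) and M0 (-0.63, adjusted p = 2.73e-07) against Ctrl. PDP1, the phosphatase that switches pyruvate dehydrogenase back on, rose in M1 against M0 (0.54, adjusted p = 9.36e-05). Of 7 tested pentose phosphate genes, 5 fell (71.4%) and 1 rose (14.3%) in M1 against M0, beside 26.7% and 25.5% of all genes. Those that fell included transketolase (TKT, -0.47, adjusted p = 7.23e-05), PGLS (-0.44, adjusted p = 0.00553) and RPE (-0.32, adjusted p = 0.00386). In M1 against Ctrl, 1 of the 7 rose (14.3%) and 2 fell (28.6%), beside 35.2% and 35% of all genes. PGLS was called higher than Ctrl in all 3 conditioned media, with 22.6 ± 4.02 CPM in M1, 26.8 ± 1.03 in M2, 30.7 ± 1.14 in M0 and 17.5 ± 2.42 in Ctrl.

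Of 11 tested other components of the HIF system, 6 rose (54.5%) and 1 fell (9.09%) in M1 against Ctrl, where 35.2% of all genes rose and 35% fell. In M2 against Ctrl 7 rose (63.6%) and 1 fell (9.09%), beside 34.1% and 32.4% of all genes. The 4 that rose (36.4%) and 3 that fell (27.3%) in M0 against Ctrl were near the background of 31.1% and 30.6%. Medians were 0.46 in M1, 0.59 in M2 and 0.21 in M0 on the log2 scale. EPAS1, which encodes HIF-2 alpha, had 534, 621 and 577 CPM in M1, 621, 692 and 693 in M2, 526, 574 and 402 in M0, and 129.6, 128 and 126 in Ctrl. Every conditioned library was far above Ctrl, with fold changes of 4.52 in M1 (log2 2.17, SE 0.06, adjusted p = 7.37e-11), 5.23 in M2 (2.39, SE 0.05, adjusted p = 3.97e-11) and 3.92 in M0 (1.97, SE 0.15, adjusted p = 3.96e-10). VHL, the ligase subunit that removes HIF alpha, averaged 62.5 ± 2.37 CPM in M1, 46.6 ± 0.456 in M2, 31.8 ± 1.82 in M0 and 27.6 ± 3.94 in Ctrl. VHL rose in M1 against M0 (0.98, SE 0.06, adjusted p = 5.05e-07) and M2 against M0 (0.55, SE 0.05, adjusted p = 0.00115). ARNT, the partner subunit, rose in M1 against M0 (0.44, adjusted p = 9.88e-05), and ARNT2, its neural relative, fell against Ctrl in M1 (-1.53, adjusted p = 1.88e-06), M2 (-1.18, adjusted p = 3.28e-05) and M0 (-1.61, adjusted p = 2.65e-06).

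Of 28 tested hypoxia targets that are not members, 16 rose (57.1%) and 3 fell (10.7%) in M1 against M0 with a median of 0.31 log2, where 25.5% of all genes rose and 26.7% fell. In M2 against M0, 9 rose (32.1%) and 2 fell (7.14%), beside 12.5% and 12.7% of all genes. M1 against M2 had 10 that rose (35.7%) and 5 that fell (17.9%), beside 15.9% and 16.6%. Against Ctrl, 15 rose (53.6%) and 7 fell (25%) in M1, beside 35.2% and 35% of all genes. The counts against Ctrl were 12 that rose (42.9%) and 11 that fell (39.3%) in M2, beside 34.1% and 32.4%, and 11 (39.3%) and 12 (42.9%) in M0, beside 31.1% and 30.6%. In these last comparisons, M2 and M0 against Ctrl, the shares in both directions were not far from the background. DDIT4, an inhibitor of mTORC1 signalling that responds to low oxygen and to nutrient stress, had 329, 324 and 333 CPM in M1, 344, 339 and 331 in M2, 313, 326 and 338 in M0, and 10.3, 7.94 and 10.2 in Ctrl. The conditioned groups overlapped one another and were all far above Ctrl. DDIT4 rose against Ctrl with log2 fold changes of 5.11 in M1 (SE 0.12, adjusted p = 6.88e-16), 5.15 in M2 (SE 0.12, adjusted p = 1.46e-15) and 5.10 in M0 (SE 0.13, adjusted p = 1.67e-15). KDM7A, a histone demethylase, averaged 57.1 ± 6.91 CPM in M1, 51.7 ± 2.91 in M2, 44.8 ± 2.71 in M0 and 2.30 ± 0.728 in Ctrl, with log2 fold changes against Ctrl of 4.59, 4.45 and 4.24 in M1, M2 and M0 (adjusted p = 6.34e-13, 1.86e-12 and 3.48e-12). MIR210HG, the host transcript of a hypoxia-induced microRNA, was lower than Ctrl in all 3, at 0.501 ± 0.134 CPM in M1, 0.606 ± 0.157 in M2, 0.341 ± 0.0528 in M0 and 2.45 ± 0.184 in Ctrl. MIR210HG fell by 2.28 in M1, by 1.98 in M2 and by 2.84 in M0 on the log2 scale (adjusted p = 1.87e-07, 1.02e-06 and 1.24e-07). VEGFA, the angiogenic growth factor, averaged 221 ± 9.52 CPM in M1, 323 ± 10.8 in M2, 301 ± 8.31 in M0 and 132 ± 31.5 in Ctrl. Like NDRG1, VEGFA rose in every conditioned medium against Ctrl (0.75 in M1, 1.29 in M2 and 1.19 in M0, adjusted p = 2.53e-05, 9.31e-08 and 2.96e-07) and was lower in M1 than in M0 (-0.45, SE 0.04, adjusted p = 0.00383).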

How the data were processed

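RNA of 12 MV3 samples (M1, M2, M0 and Ctrl, n = 3 each) was sequenced as stranded mRNA libraries with single reads of 50 nt, per the labels' protocols. Each library was sequenced in 2 runs, which the files do not keep apart. Per the submitters' processing notes, which give no roles, the tools were STAR 2.5.4b, Bowtie2 2.2.3, Trimmomatic 0.36, FastQC 0.11.7, DESeq2 1.20.0 and R 3.5.0 and 3.3.3, and the build was hg38. How reads were assigned to genes (counter, strand, annotation) is not given in the sources used here. Raw read counts for 58288 gene identifiers were deposited as 1 table, which the per-sample count files matched in 12 of 12 cases. The authors also deposited variance-stabilized values on a log2 scale, used only in an alternative test.

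The quasi-likelihood F test of edgeR 4.0.16 (R 4.3.3) was fitted to the counts of all 12 libraries with 1 mean per group and TMM scaling. Genes passed filterByExpr with minimum count 10 and minimum total 15, and p-values were adjusted by Benjamini-Hochberg at 0.05. This kept 14088 genes, 33 of the 35 members among them, with a common biological coefficient of variation of 0.0831. CPM used TMM-scaled library sizes. SEs were computed from log2 CPM with a prior count of 2, apart from the fitted fold change. CPM per kilobase used the merged length of all annotated exons of a gene in GENCODE release 29. Alternatives used DESeq2 1.42.0 and limma 3.58.1. Scripts were tested on simulated data.

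The members, the other lists and the tests were chosen with earlier results of these data known. Values in every library are given for members that passed with an absolute log2 fold change of at least 1 in any comparison, and for HIF1A, GAPDH and LDHA, 18 in all. From each other list the 3 genes with the largest absolute log2 fold change are named, with EPAS1, ARNT and VEGFA. With the strand of counting unknown, opposite-strand neighbours may add reads to HK1, HK2, PFKM, ALDOA, ALDOC, TPI1, GAPDH, ENO1, PDK1, SLC2A1, SLC16A3, CA9, HIF1A, BNIP3L, P4HA1, P4HA2 and ANKRD37, and the sources of those reads cannot be separated. Exons of PGK1 overlap ATP7A and those of PFKFB4 overlap UCN2 on the same strand. Those of GPI, PFKP, ALDOA, LDHB, SLC2A1, SLC16A3 and HIF1A also overlap another annotated gene on the same strand. Promoter sequences are from RefSeq (GRCh38.p14).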

Additional observations from a re-analysis of the deposited data

How the results depend on the processing

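Of 142 called member values in the 6 comparisons, 109 stayed called in the same direction under every alternative, 33 were lost under at least 1, and 0 changed sign. M2 against M0 held 16 of those 33 lost calls. With DESeq2 size factors 1 call was lost, with library totals only 5, with the DESeq2 test 1, with limma on the variance-stabilized values 2, with no filter on low counts 4 and with only the groups compared 4 of 140 (the other 2 had no value there). Without both M0 replicate 3 and M2 replicate 2, 23 were lost, and in M2 against M0 the members called higher became 1 and those called lower became 1. The cause was not tested. Leaving out 1 library at a time gave 6 to 8 members called higher and 16 to 17 lower in M1 against M0, 5 to 7 and 6 to 13 in M2 against M0, 4 to 6 and 10 to 12 in M1 against M2, 8 to 9 and 19 to 22 in M1 against Ctrl, 7 to 8 and 19 to 22 in M2 against Ctrl, and 7 to 8 and 16 to 21 in M0 against Ctrl. The joint test then called 26 to 28.

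The replicate numbers were not taken as pairs, since in 0 of 6 pairs of groups was every same-number correlation over 0.1. Even so, 9 of 12 libraries correlated best with their own number, a hint from the data and not from the design. With the replicate block, 0 of the 142 calls were lost, and M1 against M0 gave 8 members higher and 17 lower, M2 against M0 6 and 13, M1 against M2 5 and 13, M1 against Ctrl 9 and 21, M2 against Ctrl 8 and 21, and M0 against Ctrl 8 and 18, with 26 in the joint test. Depth limits ALDOC, EGLN3 and CA9, which had at most 36, 1 and 34 reads in a library.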

Other observations

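Levels of BHLHE40 and CA12, hypoxia targets outside the members, are given without a test because they were picked after their values were seen. BHLHE40, a transcriptional repressor induced by hypoxia and by inflammatory signals, had 50.6, 42.7 and 45.6 CPM in M1, 12.2, 11.7 and 11.3 in M2, 10.6, 11.8 and 12.1 in M0, and 11.01, 9.71 and 9.69 in Ctrl. The M1 libraries were above all 9 others, and the ranges of M2 and M0 overlapped.

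CA12, a carbonic anhydrase at the cell surface like CA9 but far better detected here, had 28.4, 24.8 and 29.2 CPM in M1, 14.1, 16.1 and 13.8 in M2, 10.8, 11.6 and 10.4 in M0, and 25.8, 20.6 and 20.5 in Ctrl. M1 and Ctrl overlapped, M2 lay below both, and M0 was lowest, which is the order of PFKFB4.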
